A study of Mus musculus with 77 samples.

Results

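The livers of 6 mice without IRP2 were compared between the middle of the light phase and its end. IRP2, encoded by Ireb2, is 1 of the iron regulatory proteins. The livers were taken from the 24 of the whole series by genotype and time alone: 3 Ireb2 knockout mice at ZT5 (ZT5 mice 1, 2 and 3) and 3 at ZT12 (ZT12 mice 1, 2 and 3). ZT, Zeitgeber time, counts hours from lights on, so that ZT12 is the moment of lights off. The mice were healthy adult males on a C57BL/6J background, homozygous for the allele Ireb2 tm1.2Mwh, kept under equal spans of light and dark with food always available. IRP2 is lost from the whole body, so that the liver was not the only organ without IRP2, and the locus still makes an mRNA. Wild-type mice of the same line, 3 at each time, served as the comparison group. Each liver came from an individual mouse and gave 1 library of ribosome-protected fragments (RPF), which samples the mRNA covered by ribosomes, and 1 library of total RNA.

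Iron regulatory proteins bind iron responsive elements (IREs), short hairpins in a small set of mRNAs, when the cell is short of iron. Bound to an IRE near the 5′ end of an mRNA, as in the ferritins, they block translation. Bound to IREs in the 3′ part of the transferrin receptor mRNA, they protect it from decay. The liver also has a circadian clock, in which CLOCK and BMAL1 drive the Per and Cry repressors and the nuclear receptor REV-ERBα closes a further loop, and it is under the daily pull of feeding, temperature and hormones. Feeding is known to act on TOP mRNAs, which begin with a run of pyrimidines and encode ribosomal proteins and translation factors, mainly at the level of their translation.

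The knockout was visible in Ireb2 footprints and not in Ireb2 RNA. Ireb2 RNA was 120.3, 144.97 and 162 CPM at ZT5 and 116, 115 and 98.9 CPM at ZT12 in the knockout (CPM, coding-sequence counts relative to the library's total after upper-quartile scaling). In wild type it was 148.01, 124.6 and 71.5 CPM at ZT5 and 141, 136 and 90.8 CPM at ZT12, and the genotypes overlapped. Ireb2 RPF was 33.2, 39.7 and 38.7 CPM at ZT5 and 37.8, 32.5 and 41.2 CPM at ZT12, and in wild type it was 79.3, 78.1 and 66.6 CPM at ZT5 and 77.6, 81.4 and 62.3 CPM at ZT12. Each knockout liver was below each wild-type liver. Between the times, Ireb2 did not pass the test at either level in the knockout. The other iron regulatory protein, IRP1, encoded by Aco1, showed changes of 0.054 ± 0.11 (SE, adjusted p = 0.89) in RNA and 0.02 ± 0.11 (SE, adjusted p = 0.948) in RPF on the log2 scale. Fbxl5, the iron sensor that marks IRP2 for breakdown, showed -0.17 ± 0.18 (SE, adjusted p = 0.75) in RNA and -0.27 ± 0.16 (SE, adjusted p = 0.375) in RPF.

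The knockout libraries held 1375029 to 3132245 coding-sequence counts for RNA and 3987815 to 10582215 for RPF. At ZT5, 3 of the 6 knockout libraries were sums of 2 sequencing runs, and at ZT12 none was, so that run number partly followed time. The coding sequence took 54.8 to 59.7% of the RNA counts at ZT5 and 58.8 to 63.8% at ZT12, and 93.9 to 95.5% of the RPF counts in all. Hepatocyte markers summed to between 140000 and 160000 CPM of RNA at ZT5 and between 150000 and 170000 CPM at ZT12, with all 8 tested and none called. In RPF they summed to between 170000 and 218000 CPM at ZT5 and between 220000 and 258000 CPM at ZT12, without overlap. Of the markers of other liver cells, none was called in RNA among 4 of 7 for red blood cells, 6 of 6 for Kupffer cells, 5 of 5 for endothelium, 5 of 5 for stellate cells and 3 of 4 for cholangiocytes that could be tested. In RPF 1 was called, the epithelial adhesion gene Epcam, at 3.56, 2.49 and 2.24 CPM at ZT5 and 0.879, 0.309 and 0.877 CPM at ZT12 (log2 fold change -1.88 ± 0.52 SE, adjusted p = 0.0376). Over all genes tested, 2.77% were called in RNA and 5.73% in RPF. The adjusted p of Epcam was up to 0.116 when 1 knockout mouse was left out. The cholangiocyte markers together summed to between 14.7 and 19.2 CPM of RPF at ZT5 and between 5.26 and 11.0 CPM at ZT12. The endothelial markers summed to between 399 and 467 CPM of RNA at ZT5 and between 349 and 362 CPM at ZT12, and to between 447 and 497 CPM of RPF at ZT5 and between 422 and 431 CPM at ZT12. The endothelial sums did not overlap in either measure, and the part of these markers in the results was not tested. None of the 6 lymphocyte and neutrophil markers could be tested, 5 for low counts and Cd3e because no row was matched to it. In whole liver, fewer cells of a type and less RNA per cell cannot be told apart. Among the wild-type livers, mouse 3 at ZT5 stood apart: its counts differed from those of its group by a chi-square per degree of freedom of 13.2 to 17.1 in RNA and 37.0 to 57.9 in RPF, against 2.31 to 6.39 and 8.45 to 19.1 between knockout mice of a group. That mouse entered the estimate of spread, so that calls of the genes chosen by the naming rule that were lost or gained without it are given with that value.

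From ZT5 to ZT12, 296 of the 10696 genes tested changed in RNA in the knockout liver (2.77%), 141 of them upward (1.32%) and 155 downward (1.45%). In RPF, 613 genes changed (5.73%), 286 upward (2.67%) and 327 downward (3.06%). A gene was counted as changed, or called, when edgeR's quasi-likelihood test gave a Benjamini-Hochberg adjusted p under 0.05 over all genes tested. Changes were mostly moderate. The median log2 fold change of the calls was 0.93 upward and -0.95 downward in RNA, with 62 and 69 genes past 2-fold, and 0.82 and -0.81 in RPF. In translation efficiency (TE, RPF over RNA), 1 gene was called (0.00935%), Stard10. At an unadjusted p under 0.05 the numbers were 1557 genes in RNA, 2065 in RPF and 483 in TE (4.52% of those tested).

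The RNA and RPF changes ran together. Of the 296 genes called in RNA, 226 were also called in RPF (76.4% of the RNA calls and 36.9% of the RPF calls), all in the same direction, while 70 were called in RNA alone and 387 in RPF alone. Of the 613 RPF calls, 598 had the same sign in RNA. Pearson's r of the log2 fold changes was 0.70 over all genes tested and 0.95 over the RNA calls; genes are not independent replicates, and both libraries of a mouse share its lysate. The 3 mice of each time did not overlap in 2346 genes in RNA (21.9%), in 2529 in RPF (23.6%) and in 1237 in TE (11.6%).

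**Figure D1:**
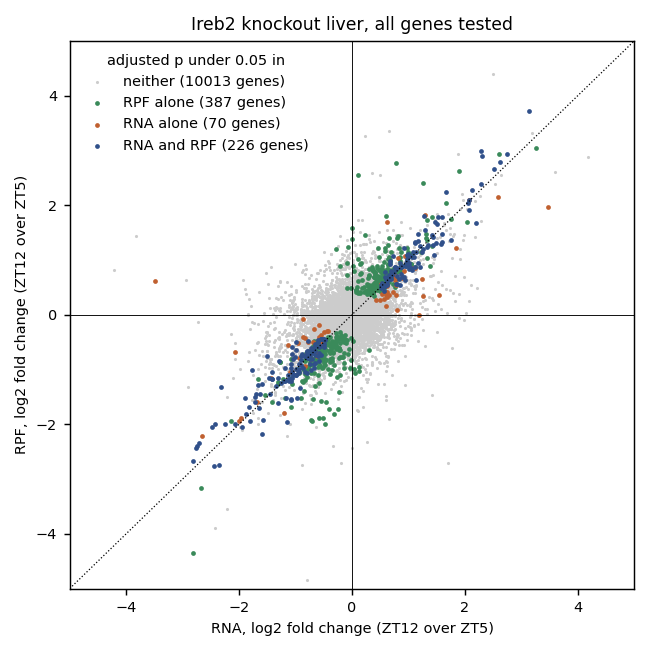
Log2 fold change from ZT5 to ZT12 in RNA (horizontal axis) and RPF (vertical axis) for the genes tested in Ireb2 knockout liver, coloured by the measure in which they passed an adjusted p of 0.05. The 226 genes called in both lie along the dotted line of equal change, and 20 genes fall outside the axes, which end at 5.

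The numbers of calls leaned on single mice. Without ZT5 mouse 2 they fell to 128 in RNA and 217 in RPF. Without ZT12 mouse 1 there were 306 in RPF, and 73 upward and 73 downward in RNA, and without ZT5 mouse 1 there were 186 in RNA and 381 in RPF. Leaving out wild-type ZT5 mouse 3 gave 490 RNA calls, 290 of them shared with the 296, 610 RPF calls and 31 TE calls. Summing all count columns gave 488 RNA calls. Of the calls of the genes chosen by the naming rule, 83 held and 50 were lost without ZT5 mouse 2, the most among the 6 knockout mice, and 11 were lost without ZT5 mouse 3, the fewest. Among them, 12 were lost without at least 1 of the 6 wild-type mice, which enter the estimate of spread, 10 of these without wild-type ZT12 mouse 1 and 1 to 5 without each other. They were Tfrc, Mvk, Acss2, Plin2, Abcg5, Cyp2a5 and Chordc1 in RNA and Eif3f, Eef1d, Acss2, Pdk4 and Cyp2a5 in RPF, and Cyp2a5 RNA was lost without any 1 of the 6.

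Clock genes changed between the times. Of 19 clock and clock output genes, all tested, 5 rose and 2 fell in RNA, against 1.32% and 1.45% of all genes, and 7 rose and 1 fell in RPF, against 2.67% and 3.06%. Per1, which encodes a repressor of CLOCK and BMAL1, stood at 7.40, 6.72 and 14.5 CPM at ZT5 and 42.8, 43.6 and 43.2 CPM at ZT12 in RNA. The groups were far apart, and Per1 rose by 2.12 ± 0.25 (SE, adjusted p = 9.02e-06) on the log2 scale. Its RPF followed, with 5.21, 3.84 and 10.2 CPM at ZT5 and 33.7, 24.7 and 30.7 CPM at ZT12 and a log2 fold change of 2.27 ± 0.33 (SE, adjusted p = 0.00181).

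Per2 RNA was 12.1, 6.30 and 7.95 CPM at ZT5 and 39.1, 28.3 and 45.2 CPM at ZT12, and Per2 RPF was 8.50, 5.20 and 9.16 CPM at ZT5 and 31.0, 36.2 and 27.6 CPM at ZT12. All ZT12 mice were above all ZT5 mice, and Per2 rose in RNA by 2.07 ± 0.40 (SE, adjusted p = 0.0137) and in RPF by 2.10 ± 0.35 (SE, adjusted p = 0.00587). Per3 RNA was 10.8, 5.04 and 12.6 CPM at ZT5 and 25.8, 25.6 and 27.5 CPM at ZT12, a rise of 1.42 ± 0.25 (SE, adjusted p = 0.00103), and Per3 RPF rose by 1.46 ± 0.27 (SE, adjusted p = 0.00309). Ciart, which encodes a further repressor of the same activators, had the highest upward RPF change of the list. Its RPF was 1.37, 0.452 and 1.83 CPM at ZT5 and 9.08, 6.80 and 9.43 CPM at ZT12, a rise of 2.98 ± 0.37 (SE, adjusted p = 7.8e-05), and its RNA rose by 2.29 ± 0.53 (SE, adjusted p = 0.0137). Tef, a PAR bZIP transcription factor of clock output, rose in RNA by 0.67 ± 0.17 (SE, adjusted p = 0.0315) and in RPF by 0.99 ± 0.21 (SE, adjusted p = 0.0149).

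Cry1, the repressor that peaks late in the cycle, rose in RPF. Cry1 RPF was 7.13, 3.62 and 4.07 CPM at ZT5 and 11.4, 12.4 and 21.9 CPM at ZT12 (log2 fold change 1.74 ± 0.40 SE, adjusted p = 0.0271), and Cry1 RNA had a log2 fold change of 1.76 ± 0.52 (SE, adjusted p = 0.121). The RNA change passed the test in other fits, for example with DESeq2, at an adjusted p of 0.00199, and without wild-type ZT12 mouse 2 (0.0104).

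Nr1d1, which encodes REV-ERBα, ran the other way. Its RNA was 78.7, 109.3 and 109.1 CPM at ZT5 and 19.95, 19.6 and 14.4 CPM at ZT12 and its RPF 170.0, 169 and 177 CPM at ZT5 and 23.4, 28.8 and 23.5 CPM at ZT12. The groups did not overlap, and Nr1d1 fell by 2.44 ± 0.24 (SE, adjusted p = 9.02e-06) in RNA, and its RPF fell by 2.77 ± 0.47 (SE, adjusted p = 0.0131). Clock itself fell in RNA, from 39.0, 39.1 and 33.4 CPM at ZT5 to 23.7, 13.6 and 19.0 CPM at ZT12, with a log2 fold change of -0.96 ± 0.23 (SE, adjusted p = 0.0182), while its RPF change of -0.51 ± 0.23 (SE, adjusted p = 0.219) did not pass. Arntl, which encodes BMAL1, had low counts and overlapping groups, with 6.39, 7.14 and 2.47 CPM at ZT5 and 1.25, 1.63 and 3.93 CPM at ZT12 in RNA (log2 fold change -1.26 ± 0.56 SE, adjusted p = 0.283).

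Arntl, Dbp, Nr1d2, Npas2, Hlf, Cry2, Rora, Bhlhe40, Bhlhe41 and Nfil3 did not pass in either measure. Dbp, a sister gene of Tef, had overlapping RNA values of 42.4, 33.6 and 66.6 CPM at ZT5 and 53.2, 57.7 and 32.8 CPM at ZT12 (log2 fold change 0.0083 ± 0.37 SE, adjusted p = 0.998), and its sign turned in other fits. Nr1d2, which encodes REV-ERBβ, had a log2 fold change of -0.05 ± 0.31 (SE, adjusted p = 0.968) in RNA. Npas2, a relative of Clock, had RPF of 0.274, 0.339 and 0.203 CPM at ZT5 and 0, 0 and 0 CPM at ZT12, which is too few counts for a fold change. Hlf, the remaining PAR bZIP gene, did not overlap in RPF, with 17.0, 14.5 and 23.6 CPM at ZT5 and 27.8, 29.999 and 26.8 CPM at ZT12 (log2 fold change 0.63 ± 0.19 SE, adjusted p = 0.0543), and was called in RPF without ZT5 mouse 3 (adjusted p = 0.0147) and with DESeq2 (0.0427). Hlf RNA had an adjusted p of 0.173, and of 0.0492 without wild-type ZT5 mouse 3. Per1 and Per3 in both measures, Nr1d1 in RNA, and Ciart and Per2 in RPF remained called whichever knockout mouse was left out. The calls of Tef, Clock and Cry1, of Ciart and Per2 in RNA and of Nr1d1 in RPF did not, with adjusted p of up to 0.169 for Tef RNA without ZT5 mouse 2. Not one of the 19 was called in TE, and their median log2 TE change was -0.11, beside 0.004 over all genes.

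**Figure D2:**
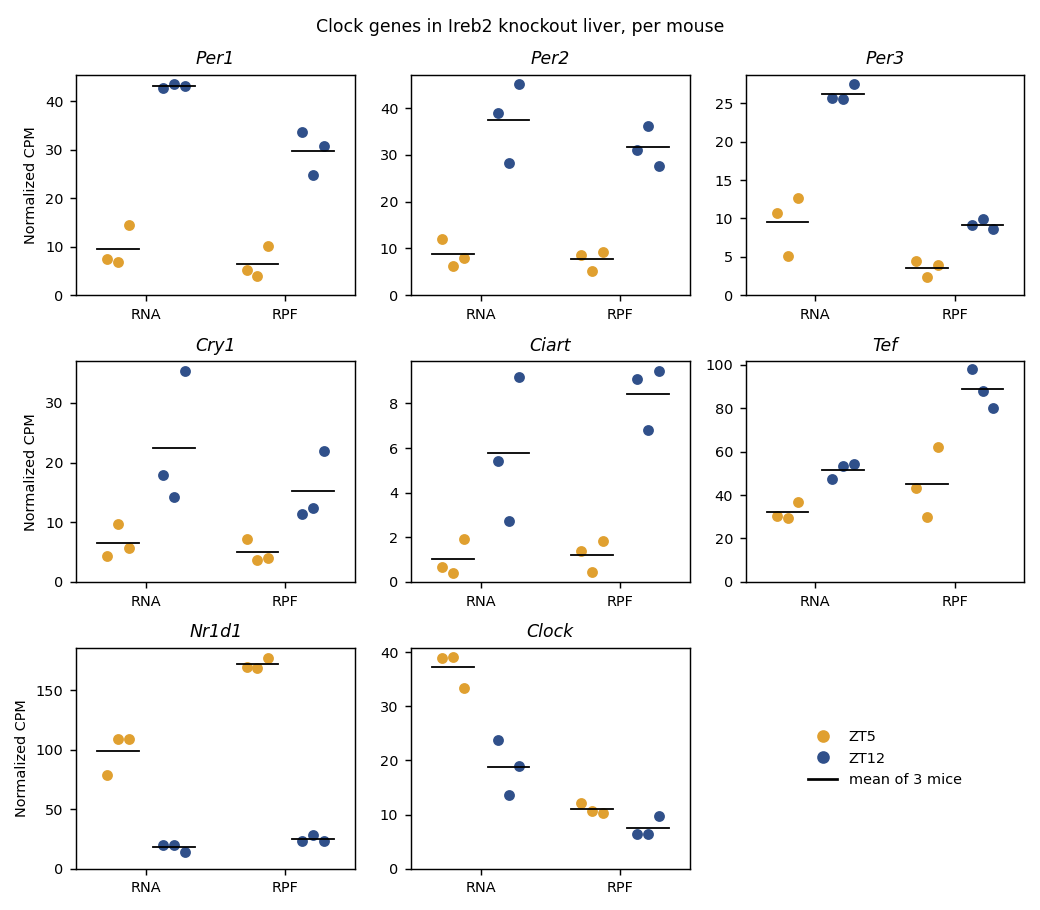
Normalized CPM of 8 clock genes in Ireb2 knockout liver, in RNA and RPF, with 1 point per mouse and a line at the mean of 3 mice; each panel has its own vertical axis from 0. Per1, Per2, Per3, Cry1, Ciart and Tef lie higher at ZT12 in RPF, and Nr1d1 lies lower, at 23.4 to 28.8 CPM against 169 to 177 CPM at ZT5.

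Promoter stretches of the genes that rose show the elements through which the clock is known to act: the E-box CACGTG, bound by CLOCK and BMAL1, and the D-box TTATGTAA or TTATGCAA, bound by DBP, TEF and HLF. They were read from RefSeq promoter windows (250 bases before to 50 after a start, GRCm38.p6), searched on both strands, and 16 of the 19 clock genes had a window. The stretches shown are a selection from genes that rose. Each line runs 5′ to 3′ on the strand of the gene, and capitals mark the element.
Ciart E-box, chr3:95882327-95882356, minus strand: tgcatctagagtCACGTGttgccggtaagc
Ciart pair of E-boxes, chr3:95882262-95882291, minus strand: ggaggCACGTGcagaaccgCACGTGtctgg
Per1 E-box, chr11:69098771-69098800, plus strand: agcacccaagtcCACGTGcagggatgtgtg
Per1 D-box, chr11:69098914-69098943, plus strand: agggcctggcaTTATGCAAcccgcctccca
Per3 D-box, chr4:151044852-151044881, minus strand: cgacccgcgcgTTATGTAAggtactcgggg
Per3 D-box, chr4:151044805-151044834, minus strand: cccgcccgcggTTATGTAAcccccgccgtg
Cry1 E-box, chr10:85185097-85185126, minus strand: ggtgccggtggtCACGTGgggtgcatgccg
Tef E-box, chr15:81802534-81802563, plus strand: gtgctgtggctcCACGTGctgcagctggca
Coq10b E-box, chr1:55052680-55052709, plus strand: ggcggcactggaCACGTGcgtcagcctagc
Tspan4 E-box, chr7:141476317-141476346, plus strand: cccccatggagcCACGTGcagagccacgag
The E-box was found in 7.15% of all windows and in 10.0% of the windows of genes tested. It was in 20.4% of the windows of genes that rose in RNA and in 10.5% of those of genes that fell. Counted per gene with a window, it was in 12.0% of genes tested, 23.7% of those that rose in RNA and 15.1% of those that fell. Irs2 and Plin2, which fell in RNA, also held the E-box. The D-box was in 1.15% of the windows of genes tested, in 4.76% of those of genes that rose in RNA and in none of the 171 of genes that fell. The element of REV-ERB receptors, TAGGTCA or TGGGTCA, was in 5.21% of the windows of genes tested, in 4.76% of those of genes that rose in RNA and in 9.36% of those of genes that fell. These shares are descriptions, and a match of letters is not a bound site.

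Beyond the clock list, the RNA rises with the smallest adjusted p included a set of enzymes and transporters. Nampt, the rate-limiting enzyme of NAD salvage, had 65.6, 65.6 and 60.6 CPM at ZT5 and 177, 207 and 194 CPM at ZT12 in RNA, a rise of 1.59 ± 0.16 (SE, adjusted p = 1.79e-06). Its RPF rose by 1.79 ± 0.13 (SE, adjusted p = 2.22e-07), with 57.3, 65.3 and 60.8 CPM at ZT5 and 198, 238 and 199 CPM at ZT12. Usp2, a deubiquitinase, rose from 6.72, 5.88 and 10.7 CPM at ZT5 to 64.8, 40.8 and 40.6 CPM at ZT12 in RNA, by 2.62 ± 0.26 (SE, adjusted p = 1.79e-06). Por, which passes electrons to the cytochromes P450, had 186, 219.8 and 254 CPM at ZT5 and 599, 488 and 598 CPM at ZT12 in RNA, a rise of 1.35 ± 0.15 (SE, adjusted p = 3e-06). In each of these genes the lowest ZT12 mouse was above the highest ZT5 mouse.

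Tspan4, a tetraspanin, was at 25.2, 20.6 and 20.6 CPM at ZT5 and 59.0, 60.4 and 66.2 CPM at ZT12 in RNA (log2 fold change 1.48 ± 0.16 SE, adjusted p = 1.83e-06). Coq10b, a coenzyme Q binding protein of mitochondria, was at 13.4, 13.03 and 15.4 CPM at ZT5 and 38.2, 46.8 and 41.9 CPM at ZT12 (log2 fold change 1.59 ± 0.19 SE, adjusted p = 9.02e-06). Slc16a12, a creatine transporter, was at 44.0, 44.5 and 43.6 CPM at ZT5 and 99.8, 82.8 and 97.0 CPM at ZT12 (log2 fold change 1.08 ± 0.14 SE, adjusted p = 2.11e-05). Nrep rose by 2.51 ± 0.29 (SE, adjusted p = 8.55e-06) and the zinc finger gene Zfp970 by 2.20 ± 0.29 (SE, adjusted p = 3.44e-05). These 5 also rose in RPF, by 1.15 to 2.66 on the log2 scale. Among the RPF calls with the smallest adjusted p were, besides these, Rnf145, an ubiquitin ligase of the ER membrane, with 9.05, 8.14 and 8.14 CPM at ZT5 and 23.4, 28.8 and 29.0 CPM at ZT12 (log2 fold change 1.69 ± 0.20 SE, adjusted p = 6.14e-05), Pdxk, the kinase that activates vitamin B6 (log2 fold change 1.06 ± 0.13 SE, adjusted p = 6.63e-05), and Lonrf3 (log2 fold change 2.89 ± 0.35 SE, adjusted p = 6.26e-05).

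Downward, the RNA calls with the smallest adjusted p began with Tymp, thymidine phosphorylase, which had 53.5, 57.6 and 45.5 CPM at ZT5 and 14.96, 10.9 and 16.4 CPM at ZT12 in RNA and fell by 1.88 ± 0.18 (SE, adjusted p = 1.67e-06). Coq8a, needed for coenzyme Q synthesis, had 577, 733 and 511 CPM at ZT5 and 130.5, 108.4 and 193 CPM at ZT12 and fell by 2.08 ± 0.20 (SE, adjusted p = 1.59e-05). Abcb11, the bile salt export pump, had 1239, 1369 and 1169 CPM at ZT5 and 557, 592 and 579 CPM at ZT12 and fell by 1.13 ± 0.14 (SE, adjusted p = 1.43e-05). In all of these the ZT12 mice lay below the ZT5 mice.

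Cldn1, a claudin of tight junctions, had 30.3, 29.4 and 23.3 CPM at ZT5 and 2.91, 7.62 and 6.55 CPM at ZT12 in RNA and fell by 2.33 ± 0.29 (SE, adjusted p = 1.43e-05). Its RPF fell by 1.33 ± 0.18 (SE, adjusted p = 0.000182). The calmodulin-dependent kinase gene Camk1d fell by 1.80 ± 0.18 (SE, adjusted p = 1.79e-06) in RNA and the actin regulator gene Eps8l2 with a log2 fold change of -1.72 ± 0.18 (SE, adjusted p = 2.17e-06). Ethe1, a mitochondrial enzyme of sulfide oxidation, fell by 1.31 ± 0.17 (SE, adjusted p = 3.47e-05), S100a10, the partner of annexin A2, with a log2 fold change of -1.68 ± 0.22 (SE, adjusted p = 3.88e-05), and Anp32a with a log2 fold change of -1.29 ± 0.17 (SE, adjusted p = 4.46e-05). All of these passed in RPF too except S100a10 (log2 fold change -1.59 ± 0.41 SE, adjusted p = 0.0647).

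In RPF the downward calls with the smallest adjusted p also held Pdcd4, an inhibitor of the helicase eIF4A, with 375, 406 and 378 CPM at ZT5 and 188, 217 and 186 CPM at ZT12 (log2 fold change -0.97 ± 0.11 SE, adjusted p = 3.2e-05). Hal, the first enzyme of histidine breakdown, had 862, 1160 and 842 CPM at ZT5 and 374, 498 and 468 CPM at ZT12 (log2 fold change -1.10 ± 0.13 SE, adjusted p = 6.14e-05). Arhgap24, a GTPase-activating protein, had 13.4, 14.8 and 12.005 CPM at ZT5 and 3.22, 3.09 and 3.95 CPM at ZT12 (log2 fold change -1.96 ± 0.21 SE, adjusted p = 1.89e-05). Fermt2, an activator of integrins, fell by 0.91 ± 0.11 (SE, adjusted p = 6.48e-05), Stra6l, a retinol transporter, with a log2 fold change of -0.97 ± 0.12 (SE, adjusted p = 8.81e-05), Gas7 with a log2 fold change of -2.18 ± 0.28 (SE, adjusted p = 0.000102) and Crip2, a LIM domain protein, with a log2 fold change of -0.90 ± 0.12 (SE, adjusted p = 0.000182). All but Crip2 were called in RNA as well. The groups did not overlap for any of these genes in RPF. The RNA calls of Arhgap24 and Fermt2 and the RPF call of Zfp970 were lost when 1 knockout mouse was left out, with adjusted p of up to 0.0834, 0.0785 and 0.103.

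Each of the 6 transcripts with a 5′ IRE had a log2 fold change above 0 in RNA and below 0 in TE, and not one passed the test in RNA, RPF or TE. Ferritin light chain, Ftl1, had a log2 TE of 0.15, 0.41 and 0.32 at ZT5 and -1.18, -2.34 and -2.24 at ZT12. All ZT12 mice were below all ZT5 mice, and the log2 TE change was -2.19 ± 0.71 (SE, adjusted p = 0.998). Ferritin heavy chain, Fth1, which oxidizes iron for storage, had a log2 TE of 0.47, 0.60 and 0.50 at ZT5 and -0.58, -1.41 and -1.47 at ZT12, again with no overlap (log2 TE change -1.67 ± 0.43 SE, adjusted p = 0.992). An exact permutation test of 3 against 3 mice gave p = 0.1 for either gene, the smallest it allows.

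Ferritin RPF was lower in all ZT12 mice than in all ZT5 mice and did not pass the test over the 12 mice, but passed in some other fits. Fth1 RPF was 1144, 1367 and 1333 CPM at ZT5 and 645, 368 and 342 CPM at ZT12 (log2 fold change -1.50 ± 0.51 SE, adjusted p = 0.147), beside RNA of 827, 903 and 942 CPM at ZT5 and 966, 978 and 949 CPM at ZT12. Ftl1 RPF was 250.1, 241 and 268 CPM at ZT5 and 123.01, 69.9 and 64.3 CPM at ZT12 (log2 fold change -1.56 ± 0.62 SE, adjusted p = 0.213), beside RNA of 225, 182 and 216 CPM at ZT5 and 279, 355 and 305 CPM at ZT12 (log2 fold change 0.59 ± 0.19 SE, adjusted p = 0.121). Without wild-type ZT5 mouse 3, Fth1 RPF and Ftl1 RNA passed the test, at adjusted p of 0.0283 and 0.00232, and the TE of Ftl1 and Fth1 did not, at 0.244 and 0.222. In a fit of the 6 knockout mice alone, Fth1 RPF (0.0127), Ftl1 RPF (0.00946) and Ftl1 RNA (0.00557) passed, and Fth1 RPF also passed with DESeq2 (0.0441). Ferritin genes have near-identical processed copies in the mouse genome, so that reads may be split among them.

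Alas2, the erythroid enzyme that starts heme synthesis, had a log2 TE of 0.39, 0.15 and 0.28 at ZT5 and -0.17, -0.21 and -0.86 at ZT12 (log2 TE change -0.67 ± 0.17 SE, adjusted p = 0.648). Slc40a1, ferroportin, the iron exporter, had 0.13, 0.44 and 0.40 at ZT5 and 0.10, -0.21 and -0.065 at ZT12 (log2 TE change -0.38 ± 0.12 SE, adjusted p = 0.821). Epas1, which encodes HIF-2α, had 0.30, 0.48 and 0.47 at ZT5 and 0.20, 0.15 and 0.022 at ZT12 (log2 TE change -0.29 ± 0.11 SE, adjusted p = 0.998). These 3 did not overlap between the times either. So 5 of 6 members were lower at ZT12 without overlap, where 11.6% of all genes did not overlap in TE in either direction. The median log2 TE of the 6 was 0.34, 0.46 and 0.44 in the ZT5 mice and -0.035, -0.21 and -0.46 in the ZT12 mice. In the fit of the 6 knockout mice alone, the TE of Alas2 and Slc40a1 passed, at adjusted p of 2.92e-05 and 0.0242, and that of Ftl1 and Fth1 did not, at 0.263 and 0.269. Alas2 TE also passed with the replicate number as a block (0.00952). Epas1 RNA passed in the 6 knockout mice alone (0.0333) and with all columns summed (0.0312).

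**Figure D3:**
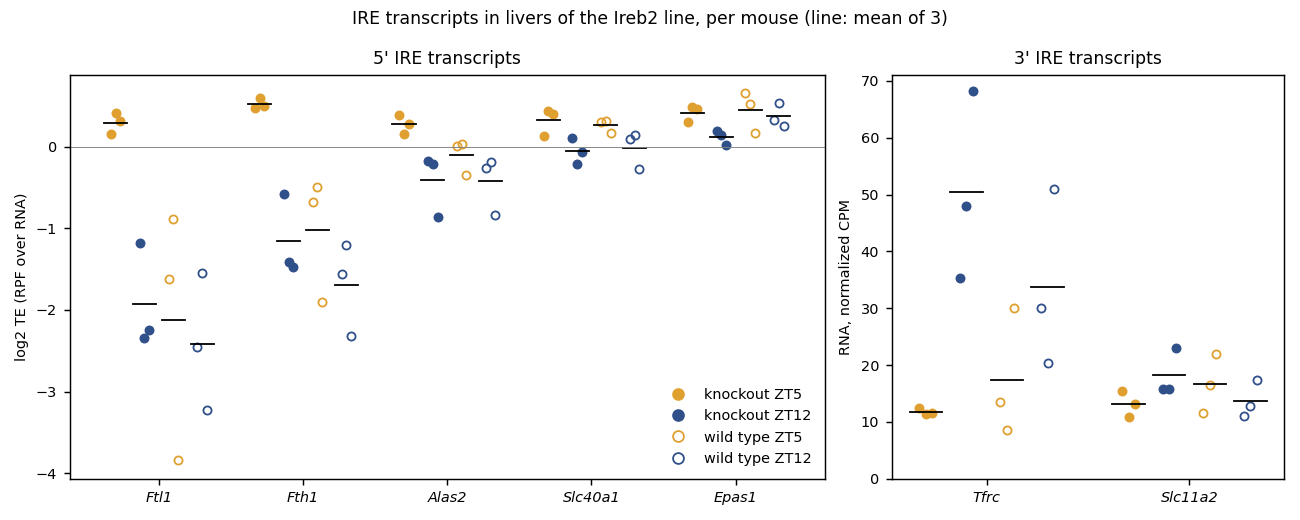
Left, log2 TE of 5 of the 6 transcripts with a 5′ IRE; right, normalized CPM of RNA of the pair with a 3′ IRE. Points are single mice and lines means of 3, filled for knockout and open for wild type; the knockout Ftl1 values lie between 0.15 and 0.41 at ZT5 and between -2.34 and -1.18 at ZT12.

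The transferrin receptor gene Tfrc, whose 3′ IREs the iron regulatory proteins protect, rose in RNA. It had 12.4, 11.3 and 11.5 CPM at ZT5 and 35.3, 47.9 and 68.1 CPM at ZT12, so that the ZT5 mice lay close together and the ZT12 mice spread widely above them. The log2 fold change was 2.07 ± 0.46 (SE, adjusted p = 0.0462). The call was lost whichever of the 6 knockout mice was left out (adjusted p between 0.0522 and 0.172). It was also lost when low counts were kept, in the first run alone and with all columns summed, and without wild-type ZT12 mouse 1 (0.0733) or wild-type ZT5 mouse 1 (0.0649), while its adjusted p was 0.0113 without wild-type ZT5 mouse 3. In RPF, Tfrc had 20.3, 19.7 and 11.0 CPM at ZT5 and 42.2, 75.5 and 98.9 CPM at ZT12 (log2 fold change 2.09 ± 0.64 SE, adjusted p = 0.109), which passed with DESeq2 (0.00997), and its log2 TE change was 0.0069 ± 0.26 (SE). Slc11a2, the importer DMT1, had RPF of 21.4, 17.5 and 18.3 CPM at ZT5 and 28.1, 31.5 and 30.3 CPM at ZT12 and rose by 0.66 ± 0.14 (SE, adjusted p = 0.00688), a call lost without ZT5 mouse 2 (0.0607). Its RNA change was 0.43 ± 0.25 (SE, adjusted p = 0.452).

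Of 16 other genes of iron transport and storage tested, 3 rose in RNA and none fell, and 2 rose and 1 fell in RPF, beside 1.32% of all genes up and 1.45% down in RNA and 2.67% up and 3.06% down in RPF. Slc39a14, the importer ZIP14 of iron not bound to transferrin, had 64.9, 54.6 and 65.3 CPM at ZT5 and 106, 107.3 and 108.8 CPM at ZT12 in RNA (log2 fold change 0.80 ± 0.17 SE, adjusted p = 0.00785) and rose in RPF by 0.70 ± 0.13 (SE, adjusted p = 0.00252). Steap4, a metalloreductase, had 61.2, 63.5 and 56.8 CPM at ZT5 and 115, 99.1 and 95.7 CPM at ZT12 (log2 fold change 0.78 ± 0.17 SE, adjusted p = 0.01) and also rose in RPF, by 0.82 ± 0.19 (SE, adjusted p = 0.0174). Pcbp2, an iron chaperone that also binds RNA, rose in RNA by 0.60 ± 0.13 (SE, adjusted p = 0.00909). Steap3, the reductase of endosomes, fell in RPF, with 26.3, 40.5 and 36.0 CPM at ZT5 and 16.1, 22.9 and 17.5 CPM at ZT12 (log2 fold change -0.88 ± 0.18 SE, adjusted p = 0.00589). The RPF call of Slc39a14 held without each knockout mouse. The other calls were lost without some of them, with adjusted p of up to 0.0591 for Steap3 RPF, 0.0782 for Pcbp2 RNA, 0.0823 for Slc39a14 RNA, and 0.0896 and 0.0883 for Steap4 RNA and RPF.

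Hepcidin and its regulators did not pass: 0 of 13 were called in RNA or RPF by edgeR, beside 2.77% of all genes in RNA and 5.73% in RPF. The same shares stand beside the counts of the heme and iron-sulfur lists. Hamp, the hepcidin gene, had 633, 321 and 476 CPM at ZT5 and 826, 713 and 794 CPM at ZT12 in RNA (log2 fold change 0.71 ± 0.24 SE, adjusted p = 0.174) and 1268, 691 and 1002 CPM at ZT5 and 1800, 1781 and 1623 CPM at ZT12 in RPF (log2 fold change 0.81 ± 0.24 SE, adjusted p = 0.0877). Its lowest ZT12 mouse was above its highest ZT5 mouse in both. None of 12 genes of heme synthesis and breakdown was called. Alas1, the heme-synthesis enzyme of liver, had a log2 fold change of 2.53 ± 0.59 (SE, adjusted p = 0.0716) in RNA and 2.39 ± 0.61 (SE, adjusted p = 0.0634) in RPF. Of 20 genes of iron-sulfur cluster assembly 0 were called by edgeR, with medians of -0.041 in RNA and 0.032 in RPF.

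The median ribosomal protein mRNA had more footprints at ZT12 and a change in RNA near 0, while 7 of 74 rose in RPF by the test, against 2.67% of all genes. Over the 74 of 81 cytosolic ribosomal protein genes that could be tested, the median log2 fold change was 0.005 in RNA, 0.67 in RPF and 0.62 in TE, beside -0.026, -0.023 and 0.004 over all genes. The 7 that rose in RPF were Rpl26, Rpl34, Rpl39, Rpl7a, Rplp1, Rps12 and Rps25, 0 fell, and in RNA 0 were called. In TE, 64 of 74 were above 0 and 39 were higher at ZT12 without overlap, where 11.6% of all genes did not overlap in either direction, and 0 passed the adjusted test. The median log2 TE of the list was -1.33, -1.31 and -0.67 in the ZT5 mice and -0.35, -0.15 and -0.51 in the ZT12 mice. ZT5 mouse 3 stood nearer to the ZT12 mice than the other ZT5 mice did.

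Rpl39 showed the pattern, with 16.1, 15.97 and 15.1 CPM at ZT5 and 14.96, 15.2 and 17.0 CPM at ZT12 in RNA and 3.56, 5.99 and 10.6 CPM at ZT5 and 18.7, 19.5 and 15.4 CPM at ZT12 in RPF. The RNA values overlapped, the RPF values did not, and the rise in RPF was 1.38 ± 0.31 (SE, adjusted p = 0.0166). Rpl26 had RPF of 11.8, 11.0 and 15.9 CPM at ZT5 and 22.3, 31.9 and 24.1 CPM at ZT12 (log2 fold change 1.02 ± 0.23 SE, adjusted p = 0.0144), and Rpl34 had 17.8, 15.8 and 17.9 CPM at ZT5 and 23.7, 27.5 and 27.4 CPM at ZT12 (log2 fold change 0.62 ± 0.17 SE, adjusted p = 0.0351). Rpl7a rose in RPF by 0.89 ± 0.22 (SE, adjusted p = 0.0265), but with all columns summed it had -0.24 (adjusted p = 0.513). The call of Rpl34 was lost whichever of the 6 knockout mice was left out (adjusted p between 0.0575 and 0.171), and those of Rpl26, Rpl39 and Rpl7a without some (up to 0.0972, 0.115 and 0.141). Rplp0, the stalk protein, had a log2 TE of -2.90, -2.39 and -2.47 at ZT5 and -1.45, -1.37 and -1.94 at ZT12 (log2 TE change 0.96 ± 0.36 SE, adjusted p = 1).

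The number of ribosomal proteins called in RPF varied with the mice. It was 0 without ZT5 mouse 2 or ZT12 mouse 2, 1 without ZT5 mouse 1 or ZT12 mouse 1, 10 without ZT12 mouse 3 and 15 without ZT5 mouse 3. Leaving out a wild-type mouse gave 5 to 20 (20 without ZT5 mouse 1, 15 without ZT12 mouse 3 and 13 without ZT5 mouse 3), and DESeq2 gave 25. The 41 TE calls of a fit of the 6 knockout mice alone held 18 members of this list, and the 31 without wild-type ZT5 mouse 3 held 14. Rps3a1, a ribosomal protein gene that the list leaves out, was called in both. Ribosomal protein genes have many near-identical pseudogenes, so that counts of single members are uncertain.

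Of 17 translation factors and other TOP mRNAs, 16 had a TE change above 0, with medians of 0.10 in RNA, 0.67 in RPF and 0.45 in TE, beside 50.8% of all genes above 0 in TE. By the test 1 rose in RNA, 3 in RPF and 0 in TE, against 1.32% and 2.67% of all genes in RNA and RPF. Eif3f, a subunit of initiation factor 3, rose in RPF with 36.2, 45.0 and 49.0 CPM at ZT5 and 71.2, 82.0 and 55.7 CPM at ZT12 (log2 fold change 0.67 ± 0.18 SE, adjusted p = 0.0379). Nap1l1, a histone chaperone, rose by 0.83 ± 0.21 (SE, adjusted p = 0.024) and Eef1d, a subunit of elongation factor 1, by 0.50 ± 0.14 (SE, adjusted p = 0.0472). Pabpc1, which binds poly(A) tails, rose in RNA by 0.62 ± 0.14 (SE, adjusted p = 0.0157). Each of these 4 calls was lost when some knockout mice were left out, with adjusted p of up to 0.20 for Eef1d without ZT5 mouse 2. Eef2, the translocase of elongation, had RPF of 197, 450.2 and 579 CPM at ZT5 and 1164, 1338 and 689.8 CPM at ZT12, which did not overlap, but the spread within ZT5 was wide and the change did not pass (log2 fold change 1.38 ± 0.54 SE, adjusted p = 0.209). Eef1a1 had 111.3, 218 and 286 CPM at ZT5 and 494, 644 and 371 CPM at ZT12 (log2 fold change 1.29 ± 0.47 SE, adjusted p = 0.176). Srm, spermidine synthase, the called gene among 6 of the polyamine pathway, rose in RNA by 1.17 ± 0.25 (SE, adjusted p = 0.00782) and in RPF by 1.48 ± 0.23 (SE, adjusted p = 0.00123), where 1.32% and 2.67% of all genes rose. The RNA call of Srm was lost without ZT5 mouse 2 (0.0622).

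Genes of cholesterol synthesis fell. Of 24 genes of cholesterol synthesis and uptake, 5 fell and 0 rose in RNA, and 10 fell and 0 rose in RPF, against 1.45% of all genes that fell in RNA and 3.06% in RPF. The median log2 fold change was -0.46 in RNA and -0.57 in RPF, with 21 of 24 below 0 in RPF, and the TE median was -0.11. Mvk, mevalonate kinase, had RPF of 41.7, 52.3 and 31.3 CPM at ZT5 and 13.2, 16.4 and 14.5 CPM at ZT12 and fell by 1.52 ± 0.28 (SE, adjusted p = 0.00879). Fdft1, squalene synthase, had 163, 215 and 121.9 CPM at ZT5 and 72.6, 84.7 and 82.3 CPM at ZT12 (log2 fold change -1.06 ± 0.22 SE, adjusted p = 0.0148). Nsdhl, a late sterol dehydrogenase, had 137, 164 and 126 CPM at ZT5 and 98.4, 88.8 and 87.1 CPM at ZT12 (log2 fold change -0.64 ± 0.12 SE, adjusted p = 0.00415). In all 3 genes the ZT12 mice lay below the ZT5 mice.

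Hmgcs1, which makes HMG-CoA, had the lowest change of the list, -2.06 ± 0.38 (SE, adjusted p = 0.0164) in RPF and -1.95 ± 0.31 (SE, adjusted p = 0.01) in RNA. Pmvk fell in RPF with a log2 fold change of -0.64 ± 0.13 (SE, adjusted p = 0.00582), Fdps with a log2 fold change of -1.08 ± 0.24 (SE, adjusted p = 0.0108) and Cyp51 with a log2 fold change of -0.58 ± 0.13 (SE, adjusted p = 0.0117). Srebf2, the transcription factor of the pathway, fell in RPF with a log2 fold change of -0.52 ± 0.13 (SE, adjusted p = 0.0267), and Sc5d and Lss completed the 10. Dhcr7 fell in RNA alone (log2 fold change -0.63 ± 0.16 SE, adjusted p = 0.0318). The RPF count was 2 without ZT12 mouse 1, 3 without ZT5 mouse 2, 7 to 8 without ZT5 mouse 1, ZT12 mouse 2 or ZT12 mouse 3, and 12 without ZT5 mouse 3. The RNA count of 5 ranged from 0 without ZT12 mouse 1 to 7 without ZT5 mouse 3, with 1 without ZT5 mouse 2 or ZT12 mouse 3, 2 without ZT12 mouse 2 and 3 without ZT5 mouse 1. The RNA call of Mvk (adjusted p = 0.0453) was also lost without wild-type ZT5 mouse 3 (0.0634).

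**Figure D4:**
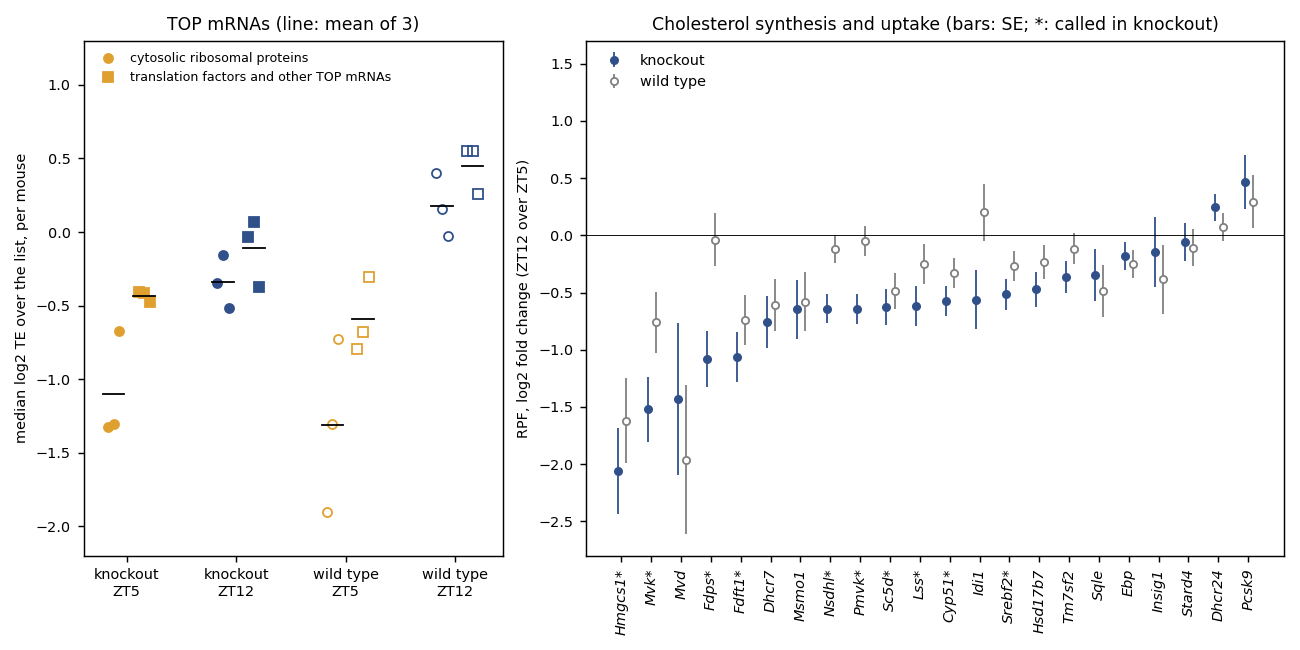
Left, median log2 TE per mouse over 74 ribosomal protein genes (circles) and 17 other TOP mRNAs (squares), with a line at the mean of 3; right, log2 fold change of RPF with SE for 22 of the 24 genes of cholesterol synthesis and uptake, knockout filled and wild type open, an asterisk marking the 10 called in the knockout. Filled symbols are knockout; the ribosomal protein medians lie between -1.33 and -0.67 at ZT5 and between -0.51 and -0.15 at ZT12.

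Among 17 lipogenic genes, 2 fell in RNA, and 4 fell and 1 rose in RPF, against 1.45% of all genes down in RNA and 3.06% down and 2.67% up in RPF. Insig2, which holds SREBP precursors in the ER, had RNA of 88.1, 74.0 and 70.5 CPM at ZT5 and 22.4, 23.4 and 33.4 CPM at ZT12 (log2 fold change -1.57 ± 0.22 SE, adjusted p = 0.000227) and RPF that fell by 1.92 ± 0.32 (SE, adjusted p = 0.00757). Mlxipl, which encodes the glucose-sensing factor ChREBP, had RPF of 132.4, 120.8 and 132.5 CPM at ZT5 and 91.7, 86.6 and 71.3 CPM at ZT12 (log2 fold change -0.63 ± 0.13 SE, adjusted p = 0.00582). Acss2, cytosolic acetyl-CoA synthetase, fell in RNA with a log2 fold change of -1.14 ± 0.25 (SE, adjusted p = 0.0378) and in RPF with a log2 fold change of -1.10 ± 0.27 (SE, adjusted p = 0.0462). Elovl5, a fatty acid elongase, fell in RPF with a log2 fold change of -0.96 ± 0.21 (SE, adjusted p = 0.0223), while Dgat2, a triglyceride synthase, rose by 0.39 ± 0.11 (SE, adjusted p = 0.0453). The Insig2 and Mlxipl calls held without any 1 knockout mouse, the Acss2 RPF call was lost without each of them (adjusted p of up to 0.128), and those of Acss2 RNA and Elovl5 were lost without some (up to 0.109 and 0.096). Both Acss2 calls were also lost without wild-type ZT5 mouse 3 (0.0835 in RNA and 0.0704 in RPF). The call of Dgat2 was lost without ZT5 mouse 2 or 3, ZT12 mouse 1 or 2, or wild-type ZT12 mouse 1, ZT5 mouse 1 or ZT5 mouse 2.

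Of 23 genes of fatty acid oxidation and ketogenesis, 1 rose and 1 fell in each measure, beside 1.32% up and 1.45% down over all genes in RNA and 2.67% and 3.06% in RPF. Cpt1a, which brings fatty acids into mitochondria, rose in RNA by 0.58 ± 0.14 (SE, adjusted p = 0.0181) and in RPF by 0.53 ± 0.13 (SE, adjusted p = 0.0202). Plin2, a coat protein of lipid droplets, had RNA of 338, 323 and 461 CPM at ZT5 and 177, 134.5 and 211 CPM at ZT12 and fell by 1.10 ± 0.24 (SE, adjusted p = 0.0255). Pdk4, a brake on pyruvate oxidation, fell in RPF with a log2 fold change of -1.46 ± 0.39 (SE, adjusted p = 0.0357). All of these calls were lost without some of the knockout mice, with adjusted p of up to 0.263 for Pdk4 without ZT5 mouse 2. The Plin2 call was also lost without wild-type ZT5 mouse 3 (0.0732). The list medians were -0.095 in RNA and -0.033 in RPF.

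In glucose and glycogen metabolism, 3 of 21 genes rose in RNA and in RPF, against 1.32% and 2.67% of all genes, and 1 fell in RNA, against 1.45%. Gys2, the glycogen synthase of liver, had RNA of 148.9, 154 and 248 CPM at ZT5 and 366, 433 and 375 CPM at ZT12 (log2 fold change 1.09 ± 0.17 SE, adjusted p = 0.000282). Slc37a4, the glucose 6-phosphate transporter, had 119, 109.3 and 117 CPM at ZT5 and 244, 181 and 239.8 CPM at ZT12 (log2 fold change 0.95 ± 0.16 SE, adjusted p = 0.000664). Pfkfb3, which makes the activator of glycolysis fructose 2,6-bisphosphate, had 4.71, 3.36 and 4.94 CPM at ZT5 and 27.9, 22.9 and 12.4 CPM at ZT12 (log2 fold change 2.28 ± 0.48 SE, adjusted p = 0.0243). Irs2, an adaptor of the insulin receptor, had 31.9, 54.6 and 49.9 CPM at ZT5 and 6.65, 15.8 and 12.4 CPM at ZT12 and fell by 2.002 ± 0.33 (SE, adjusted p = 0.00298), with an RPF change of -1.94 ± 0.57 (SE, adjusted p = 0.0957). The groups did not overlap in RNA in any of the 4. The Pfkfb3 calls were lost without some knockout mice (adjusted p of up to 0.118 in RNA and 0.135 in RPF), and those of the others held.

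In bile acid and sterol transport, 2 of 15 genes were called, against 2.77% of all genes in RNA and 5.73% in RPF: Abcb11, which fell as given above, and Abcg5, a sterol exporter, which rose in RNA by 0.65 ± 0.17 (SE, adjusted p = 0.036) and in RPF by 0.72 ± 0.15 (SE, adjusted p = 0.00732). Cyp7a1, the rate-limiting enzyme of bile acid synthesis, had a log2 fold change of 0.38 ± 0.23 (SE, adjusted p = 0.466) in RNA. Of 12 drug metabolism genes, Por and Cyp2a5 rose in both measures, where 1.32% of all genes rose in RNA and 2.67% in RPF. Cyp2a5, a coumarin hydroxylase, had RNA of 226, 255 and 310.1 CPM at ZT5 and 426, 358 and 773 CPM at ZT12 (log2 fold change 0.97 ± 0.23 SE, adjusted p = 0.0443) and an RPF rise of 1.01 ± 0.24 (SE, adjusted p = 0.0346). The RNA call of Abcg5 and both calls of Cyp2a5 were lost without some knockout mice (adjusted p of up to 0.212, 0.164 and 0.131), and the RNA call of Cyp2a5 also without wild-type ZT5 mouse 3 (0.103). Cyp2a5 has near-identical relatives, so that reads may be split.

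Among 11 glucocorticoid-responsive genes, 2 rose in RNA and 2 in RPF, against 1.32% and 2.67% of all genes, and the list medians were 1.25 in RNA and 1.22 in RPF. Zbtb16, a zinc finger repressor, had RNA of 8.40, 6.30 and 10.1 CPM at ZT5 and 27.0, 27.2 and 32.1 CPM at ZT12 (log2 fold change 1.75 ± 0.29 SE, adjusted p = 0.000939) and rose in RPF by 1.36 ± 0.32 (SE, adjusted p = 0.0215). Dusp1, a phosphatase of MAP kinases, had 9.08, 7.14 and 14.5 CPM at ZT5 and 47.0, 39.2 and 25.6 CPM at ZT12 (log2 fold change 1.84 ± 0.26 SE, adjusted p = 0.000163), with 1.22 ± 0.44 (SE, adjusted p = 0.164) in RPF. Mt2, a metallothionein that binds zinc and copper, had RPF of 1.65, 1.24 and 1.83 CPM at ZT5 and 7.91, 13.9 and 3.51 CPM at ZT12 and rose by 2.41 ± 0.49 (SE, adjusted p = 0.00953). Fkbp5, a chaperone of the receptor, had a log2 fold change of 2.17 ± 0.71 (SE, adjusted p = 0.194) in RNA and did not pass. The RPF calls of Zbtb16 and Mt2 were lost without some mice (adjusted p of up to 0.0833 and 0.0873), while the RNA calls held.

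Several heat shock genes rose. Of 16 heat shock and cold-inducible genes, 5 rose in RNA and 5 in RPF, against 1.32% and 2.67% of all genes, and 0 fell. Hspa8, the constitutive HSP70, had RNA of 43.4, 35.7 and 46.9 CPM at ZT5 and 91.5, 86.0 and 98.9 CPM at ZT12 (log2 fold change 1.12 ± 0.15 SE, adjusted p = 3.88e-05) and RPF of 23.6, 26.8 and 29.9 CPM at ZT5 and 62.7, 56.9 and 80.7 CPM at ZT12 (log2 fold change 1.32 ± 0.24 SE, adjusted p = 0.00731). With all count columns summed, however, Hspa8 RNA had -0.19 (adjusted p = 0.524). Hsph1, a nucleotide exchange factor of HSP70, had RNA of 28.9, 26.1 and 28.0 CPM at ZT5 and 66.5, 55.5 and 82.6 CPM at ZT12 (log2 fold change 1.29 ± 0.19 SE, adjusted p = 0.000177) and rose in RPF by 1.54 ± 0.25 (SE, adjusted p = 0.00552). Its cochaperone Dnajb1 rose in RNA by 1.12 ± 0.21 (SE, adjusted p = 0.00238) and in RPF by 0.87 ± 0.18 (SE, adjusted p = 0.00692), and Chordc1, a cochaperone of HSP90, by 0.73 ± 0.20 (SE, adjusted p = 0.0432) and 1.07 ± 0.21 (SE, adjusted p = 0.007). Dnaja1 rose in RNA alone (log2 fold change 1.23 ± 0.27 SE, adjusted p = 0.0112) and Hspa1b, the inducible HSP70, in RPF alone (log2 fold change 1.69 ± 0.41 SE, adjusted p = 0.0189). The cold-inducible RNA-binding gene Cirbp had a log2 fold change of -1.05 ± 0.31 (SE, adjusted p = 0.067) in RNA. The RPF calls of Dnajb1 and Chordc1 were lost without ZT5 mouse 2 (0.0748 and 0.0552) and the RNA call of Chordc1 without some mice (up to 0.20). Without ZT5 mouse 2 the list held 3 calls in RNA and 2 in RPF, those of Hspa8 and Hsph1 in both and of Dnajb1 in RNA, so that Dnaja1 RNA and Hspa1b RPF were lost as well. Without ZT12 mouse 1 it held 3 in RNA and 4 in RPF.

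Of 22 ER chaperones and genes of the unfolded protein response, 2 rose and 1 fell in each measure, against 1.32% up and 1.45% down over all genes in RNA and 2.67% and 3.06% in RPF. Dnajb9, a cochaperone of the ER, had RNA of 19.2, 14.3 and 20.8 CPM at ZT5 and 40.3, 39.2 and 33.4 CPM at ZT12 (log2 fold change 1.05 ± 0.22 SE, adjusted p = 0.0062), and Herpud1, of ER-associated degradation, had 139.8, 148.3 and 229 CPM at ZT5 and 296, 297 and 346 CPM at ZT12 (log2 fold change 0.86 ± 0.19 SE, adjusted p = 0.0174). Trib3, a pseudokinase of the stress response, had 5.71, 9.24 and 11.8 CPM at ZT5 and 2.08, 2.18 and 0.655 CPM at ZT12 and fell by 2.35 ± 0.47 (SE, adjusted p = 0.00417) in RNA, and its RPF fell by 2.74 ± 0.56 (SE, adjusted p = 0.0205). The main chaperone Hspa5 had a log2 fold change of 0.20 ± 0.14 (SE, adjusted p = 0.55) in RNA. Apart from Trib3 RNA, each of these calls was lost without some mice, with adjusted p of up to 0.108. None of 12 mitochondrially encoded genes was called, beside 2.77% of all genes in RNA and 5.73% in RPF.

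The TE call was Stard10, which encodes a phospholipid transfer protein of liver. Its RNA was 965, 928 and 868 CPM at ZT5 and 844, 759 and 997 CPM at ZT12, with overlapping groups (log2 fold change -0.087 ± 0.12 SE, adjusted p = 0.811). Its RPF was 293, 276 and 286 CPM at ZT5 and 385, 379.8 and 441 CPM at ZT12, with all ZT12 mice above all ZT5 mice (log2 fold change 0.50 ± 0.11 SE, adjusted p = 0.00757). The log2 TE was -1.72, -1.75 and -1.60 at ZT5 and -1.13, -0.999 and -1.18 at ZT12, a rise of 0.59 ± 0.088 (SE, adjusted p = 0.000237). The TE call held without each of the 6 knockout mice (adjusted p of up to 0.0185) and was lost when the libraries were not paired by mouse and in limma on the log2 TE (0.85). The RPF call was lost without ZT5 mouse 2 (0.0577). In wild-type liver the TE change was 0.18 ± 0.087 (SE, adjusted p = 0.586), and the difference between the genotypes, 0.41 ± 0.12 (SE, unadjusted p = 0.00189), did not pass the adjusted test (0.886).

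The time effect of the knockout was set beside that of the wild-type livers of the line, where 245 genes were called in RNA (2.29%), 805 in RPF (7.53%) and 57 in TE (0.533%). Tested directly, the difference between the time effects passed for 0 of 10696 genes (0%) in RNA, RPF and TE alike, by edgeR and by DESeq2, with 413, 426 and 562 genes at an unadjusted p under 0.05 in edgeR. The calls shared with wild type made up 42.2% of the knockout and 51.0% of the wild-type calls in RNA, and 57.4% and 43.7% in RPF, where they were 352 genes, all in the same direction. The single TE call of the knockout was not among the 57 of the wild type. All 296 knockout RNA calls and 602 of the 613 RPF calls had the same sign in wild type, as 63.5% of all genes did in RNA and 70.8% in RPF. The RNA calls had a median size of 0.68 there and 0.95 in the knockout, where the calls were chosen. A gene called in 1 genotype alone is therefore not shown to differ between them.

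No difference passed adjustment, and 1 gene with a low unadjusted p is given as description. Arhgap24 RPF fell by 1.96 on the log2 scale in the knockout and had a log2 fold change of -0.57 in wild type (edgeR, unadjusted p of the difference = 8.56e-05, adjusted 0.458). Over the 74 ribosomal proteins the median TE change was 0.62 in the knockout and 1.45 in wild type. Of the 74 differences 69 were below 0, beside 50.8% of all genes, with 0 called. These genes were measured in the same mice and are not replicates. The median log2 TE of the list in wild type was -1.90, -1.31 and -0.73 at ZT5 and 0.40, 0.16 and -0.027 at ZT12. The medians of the genotypes overlapped at ZT5, and at ZT12 each wild-type mouse was above each knockout mouse. In RPF 66 rose in wild type, against 3.63% of all genes there, and 7 rose in the knockout, a count of 0 to 15 when 1 knockout mouse was left out. Over the 12 mitochondrially encoded genes the median TE change was 0.10 in the knockout and -1.33 in wild type. All 12 differences were above 0 in TE, beside 49.2% of all genes, and in RPF, beside 49.7%. In RNA all 12 were below 0, beside 50.9%, and 0 differences were called. Wild-type ZT5 mouse 3 had the highest median log2 TE of this list, -1.735. For the ferritins, the log2 TE of Ftl1 was -1.62, -0.89 and -3.84 at ZT5 and -2.46, -1.55 and -3.23 at ZT12 in wild type. The change was -0.35 ± 0.76 (SE, adjusted p = 0.958), and the groups overlapped. Its lowest ZT5 value, -3.84, was that of wild-type ZT5 mouse 3, which stood apart from its group. Without that value the groups would still overlap, with -1.62 at ZT5 and -1.55 at ZT12. The wild-type change and the differences given next include that mouse, and their size depends on it. The difference for Ftl1 was -1.84 ± 1.04 (SE, unadjusted p = 0.114) and for Fth1 -0.98 ± 0.61 (0.147). Without wild-type ZT5 mouse 3, 6 genes passed in the TE difference, without wild-type ZT5 mouse 2 it was 4, without knockout ZT5 mouse 2 or wild-type ZT12 mouse 3 it was 1, and in RNA and RPF it stayed at 0 without any 1 of the 12 mice.

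**Figure D5:**
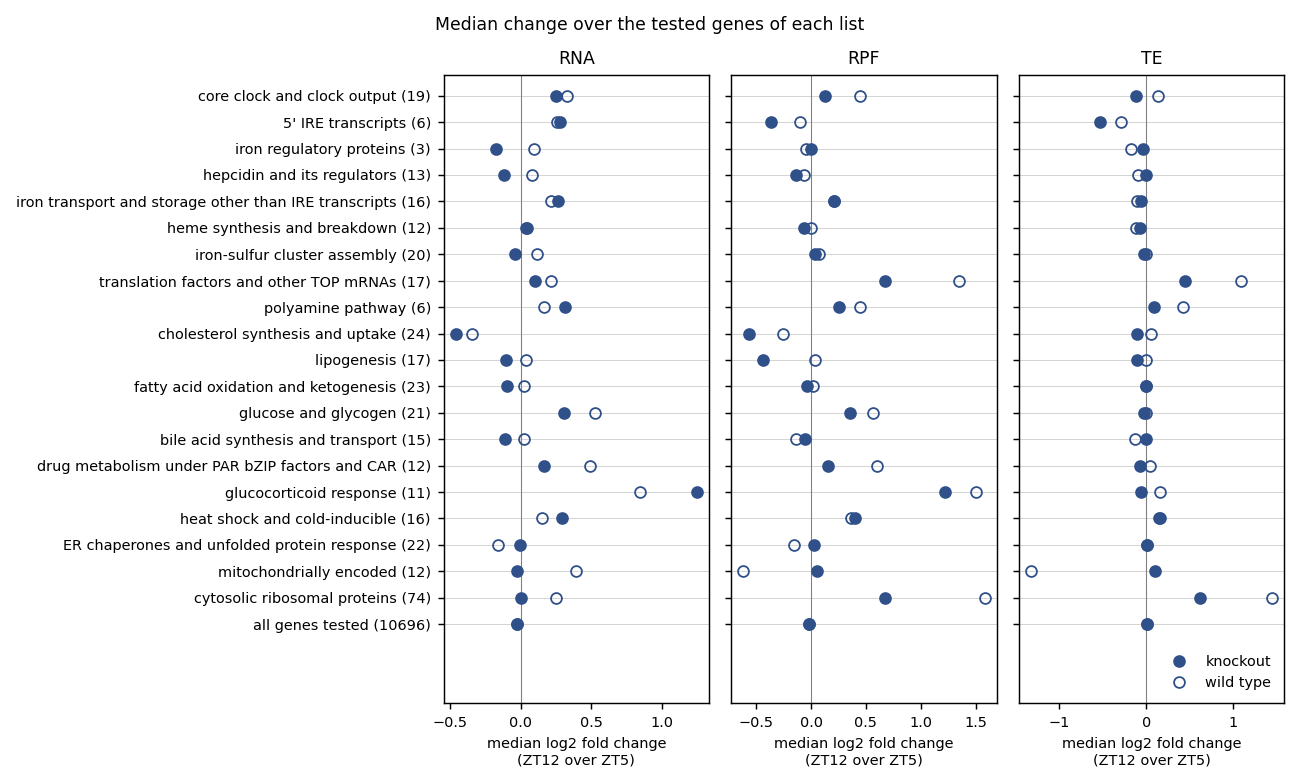
Median log2 fold change from ZT5 to ZT12 over the tested genes of each list (number in parentheses) in RNA, RPF and TE, filled for knockout and open for wild type. The TE medians of the ribosomal proteins are 0.62 in knockout and 1.45 in wild type, and those of the 5′ IRE transcripts are -0.53 and -0.29.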

How the data were processed

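The livers were profiled by ribosome profiling, with RNase I digestion of the lysate, and by sequencing of total RNA after removal of ribosomal RNA. The submitters' processing notes name cutadapt 3.5, Bowtie2 and STAR 2.70f, and the study's methods name a version 38 of the mouse genome. The tool that counted reads and its use of strand are not given in the sources used here. The authors deposited raw counts per gene, 1 table for each of 77 sequencing runs, with 5 count columns that no header names. The third was taken as the coding sequence from its values, since it held most RPF counts, and the last was 0 throughout. Runs of a library were summed, giving 48 libraries from 24 mice.

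Genes were tested with edgeR 4.0.16 in R 4.3.3 (upper-quartile factors over the 48 libraries, robust quasi-likelihood F test). Genes passed filterByExpr with a minimum count of 10 and a minimum total of 15, which left 10696 of 25266. The 12 mice of the Ireb2 line, 4 groups of 3, shared 1 estimate of spread. TE was tested in 1 model of both libraries, with mouse as a term, library type and its interaction with group. The SE was derived from the fold change and its F statistic. P-values were adjusted by Benjamini-Hochberg across every gene that passed the filter, and those under 0.05 were called. The log2 TE of a mouse is log2 CPM of RPF minus that of RNA, with a prior count of 0.5, and single genes were compared by exact two-sided permutation tests. Gene lists were described by counts and medians, with no set test. The fits were tested on simulated data in which 200 genes changed by 2- or 3-fold. The RNA fit found 54% of the 2-fold and 81% of the 3-fold changes, and the RPF fit 60% and 90%. The TE fit found 21% and 50%, so that most 2-fold TE changes were missed there. The difference from wild type was not simulated. DESeq2 1.42.0, limma 3.58.1, TMM factors, other filters, first runs alone, all columns summed, the 6 knockout mice alone, the replicate number as a block and the omission of each mouse were alternatives.

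The members and lists were chosen with earlier results of these data known. Genes were named by rule: all members of the clock, IRE and iron regulatory protein lists, in RNA, RPF and TE each the 10 that rose and the 10 that fell with the smallest adjusted p and no overlap (without predicted genes), and up to 4 called members of each further list. Some members are counted with their lists and not reported by name here. Names outside that rule were chosen after their values were seen: Hamp, Hmgcs1, Fdps, Cyp51, Srebf2, Sc5d, Lss, Dhcr7, Dgat2, Alas1, Cyp7a1, Fkbp5, Dnaja1, Hspa1b, Cirbp, Hspa5, Rplp0, Rplp1, Rps12, Rps25, Rps3a1, Eef2 and Eef1a1. The knockout libraries held 1375029 to 10582215 coding-sequence counts, so that genes at a few CPM rest on few counts.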

Additional observations from a re-analysis of the deposited data

How the results depend on the processing

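The RNA count of 296 genes stayed within 1.5 times under TMM, DESeq2, both other filters, first runs alone and the block. It was 455 in a fit of the 6 knockout mice alone, 291 of them shared with the 296, and 488 with all columns summed, 248 shared. The RPF count of 613 lay between 523 and 688 under the alternatives that kept all mice. The TE count of 1 was 41 with the 6 knockout mice alone, 2 with all columns summed, and 0 without pairing of libraries by mouse or with limma. Leaving out 1 of the 12 mice gave 128 to 490 genes in RNA, 217 to 707 in RPF and 1 to 31 in TE, and 0 to 6 for the TE difference from wild type. That difference was 1 gene without a filter on low counts. Replicate numbers of the labels did not pair the mice, since same-numbered mice correlated at no more than 0.08 in their deviations from the group means, in 3 pairs per measure. With the replicate number as a block, 295 genes were called in RNA, 541 in RPF and 3 in TE, and 2 in the TE difference. Of the calls of the genes chosen by the naming rule, 8 were lost with first runs alone, 8 with the block, 7 in the 6 knockout mice alone, 4 without a filter, 2 with TMM and 1 with a minimum of 50 counts. All 130 for which DESeq2 gave an adjusted p held there. With all columns summed 4 were lost and 2 turned in sign without passing, Hspa8 RNA at -0.19 and Rpl7a RPF at -0.24. Uncalled log2 fold changes near 0 also turned: with first runs alone Nr1d2 RNA to 0.039 and Nfil3 RPF to 0.012, with all columns summed Nfil3 RPF to 0.025, Dbp RNA to -0.0042 and Dbp RPF to -0.069, with the block Dbp RNA to -0.025, Dbp RPF to -0.048, Tfrc TE to -0.0071 and Ireb2 RPF to 0.0030, and Ireb2 RPF to 0.024 with TMM, 0.023 with DESeq2 and 0.012 with a minimum of 50 counts. With 1 knockout mouse left out, 13 uncalled values ran across 0: from -0.28 to 0.19 for Nr1d2 RNA, -0.088 to 0.68 for Bhlhe40 RNA, -0.37 to 0.46 for Bhlhe40 RPF, -0.091 to 0.27 for Nfil3 RNA, -0.34 to 0.17 for Nfil3 RPF, -0.18 to 0.34 for Dbp RNA, -0.24 to 0.40 for Dbp RPF, -0.029 to 0.22 for Cry2 RPF, -0.035 to 0.27 for Alas2 RNA, -0.25 to 0.16 for Tfrc TE, -0.059 to 0.085 for Aco1 RPF, -0.093 to 0.028 for Aco1 TE and -0.086 to 0.085 for Ireb2 RPF. The cause of these moves was not tested.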
